A study of Mus musculus with 9 samples.

Results

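Solute carriers are membrane proteins that move small molecules across the plasma membrane and the membranes of organelles, by facilitated diffusion or coupled to an ion gradient. Their genes are numbered by family, and a family mostly shares a kind of substrate. The members described here are the genes of the deposited table whose symbol reads Slc, a number, the letter a and a number, or starts with Slco, and whose mean read count over the 9 libraries was at least 50. Slc2a1, Slc16a3 and Slc7a11 were left out by name and are not described. This left 158 of the 14771 genes in the table; 272 genes had such a symbol and 161 of them reached the count. Just inside the limit stood Slc22a4 with a mean count of 54.6, Slc4a8 with 55.6 and Slc39a2 with 56.4, and just outside it stood Slc16a14 with 49.2, Slc7a4 with 42.4 and Slc8a2 with 36.2. All 158 members passed the filter on low counts. The symbol fixed the choice, so 3 members that carry a solute carrier name but are not carriers themselves (Slc4a1ap, Slc7a6os and Slc9a3r1) stayed in and are counted apart.

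The 9 libraries hold RNA of MH-S cells, an established mouse cell line derived from alveolar macrophages, and form the groups CON, LPS and SUR with 3 libraries each. CON cells received 1640 medium, and LPS cells received 1 µg/ml lipopolysaccharide, a bacterial cell wall component sensed by TLR4, for 4 h. SUR libraries carry the sample label suramin, a polyanionic drug that blocks purinergic receptors among other targets. The protocol, however, names a SUR+LPS group that received 200 µM suramin besides LPS at the same dose and time. SUR is therefore taken to be suramin with LPS. With that reading, LPS against CON gives the response to LPS, and SUR against LPS the difference that suramin makes in LPS-treated cells. Suramin without LPS was not analysed here. All groups are the same cell line, and no label says that the 3 libraries of a group came from separate cultures, so the spread behind the p-values is that between libraries and may be technical.

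Library totals ran from 15729402 to 16675250 counts. The macrophage markers Ptprc, Cd68, Itgam, Adgre1, Csf1r and Lyz2 had at least 4089 counts in every library, while the alveolar macrophage genes Marco, Chil3, Siglecf and Pparg had at most 10. Other listed macrophage markers lay between, with 1131 to 3260 counts for Mrc1, 115 to 196 for Itgax and 54 to 75 for Fabp4. Car4 was not analysed here. Of the 9 tested genes of the macrophage list, Csf1r alone was called without a block on replicate number, higher in LPS than in CON and lower in SUR than in LPS. With that block, 2 were higher in LPS than in CON (Csf1r and Ptprc), 1 was higher and 4 lower in SUR than in LPS, and 1 was lower in SUR than in CON. Of the listed markers of other cells, those of epithelium summed to at most 0.183 CPM (counts scaled to library depth) in any library and those of lymphocytes and neutrophils to at most 0.243 CPM, and the fibroblast and endothelial sum was made almost entirely by Vwf (1474 to 4105 counts). Libraries numbered 1 stood apart from the others in every group: 1.29% of tested genes were over 2-fold lower there than in libraries 2 and 3 in all 3 groups and 0.993% over 2-fold higher. Same-numbered libraries also deviated together, though libraries 2 and 3 did so nearly as much across numbers. Each comparison is therefore given both over groups and within numbers.

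Macrophages use these carriers to take up arginine and other amino acids, to withhold iron and manganese from engulfed microbes, to set pH and ion content, and to feed their mitochondria. Among members, levels per length (the authors' FPKM, fragments scaled to gene length and library depth) spanned 0.277 to 509 FPKM in CON, with a median of 14.0 against 13.8 FPKM over all tested genes. The highest were mitochondrial: the phosphate carrier Slc25a3 at 509 ± 21.9 FPKM (SD, n = 3) and the ADP/ATP carriers Slc25a5 at 411 ± 6.97 FPKM and Slc25a4 at 215 ± 24.9 FPKM. The taurine transporter Slc6a6 (213 ± 12.1 FPKM) and Slc25a39, which takes part in mitochondrial glutathione import (188 ± 8.04 FPKM), followed, and these 2 did not differ beyond their spread from Slc25a4. None of these 5 was called in any comparison without the block on replicate number. With it, Slc25a3 was higher in LPS than in CON (log2 fold change 0.14, edgeR adjusted p = 0.00867) and lower in SUR than in LPS (adjusted p = 0.00282), Slc25a5 was lower in SUR than in LPS (adjusted p = 0.00404) and Slc25a4 lower in SUR than in CON (adjusted p = 0.0424). Slc25a4 and Slc25a5 have close copies elsewhere in the genome, so their counts may be uncertain, although they were whole in all 9 libraries. The part of such copies was not tested.

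Summed by class, mitochondrial carriers held 1766, 1861 and 1891 FPKM in the CON libraries, 1654, 1755 and 1726 FPKM in LPS and 1703, 1812 and 1807 FPKM in SUR, the largest FPKM sum of the 11 classes. Every LPS library lay below every CON library on this scale only. In CPM the groups overlapped, at 2586 to 2741 CPM in CON, 2610 to 2802 CPM in LPS and 2498 to 2683 CPM in SUR. Sugar carriers summed to 191, 182 and 199.9 FPKM in CON, 238, 255 and 259 FPKM in LPS and 199.9, 206 and 216 FPKM in SUR, with every LPS library above every other. Slc2a6 alone made this rise. The other 10 sugar carriers summed to 156, 156 and 171 FPKM in CON, 122, 127 and 129 FPKM in LPS and 159.6, 163 and 164 FPKM in SUR, with every LPS library below every other, and the same order held for their CPM sums (347 to 380 CPM in LPS, 406 to 449 CPM in CON and 426 to 445 CPM in SUR). Nucleoside carriers summed to 93.5, 118 and 122 FPKM in CON, 74.8, 94.3 and 88.0 FPKM in LPS and 90.0, 111 and 106 FPKM in SUR; within each number LPS was the lowest of the 3, though the groups overlap. Organic ion and vitamin carriers summed to 323, 317 and 335 FPKM in CON, 282, 295 and 288 FPKM in LPS and 318, 324 and 322 FPKM in SUR, with every LPS library below every other. Their CPM sums overlapped, at 1079 to 1107 CPM in CON, 1081 to 1121 CPM in LPS and 1078 to 1099 CPM in SUR, so that order holds on the FPKM scale only.

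LPS changed a minority of solute carrier genes, in both directions. In these bulk samples, fewer cells that express a gene and less of its RNA per cell cannot be told apart. Of the 158 members, 23 rose and 14 fell in LPS against CON (edgeR, adjusted p below 0.05), which is 23.4% of members, where 18.3% of all 11281 tested genes were called. The calls higher in LPS were 14.6% of members against 8.98% of tested genes, and those lower were 8.86% against 9.36%. The median log2 fold change was -0.02 over members and -0.01 over all tested genes. With the replicate number as a block, 35 rose and 38 fell (46.2% of members, 41.8% of tested genes, of which 20.1% higher and 21.7% lower), and all 37 calls made without the block were among them. Within numbers, 52 members were higher and 53 lower in LPS in all 3 pairs (66.5% of members, 63.1% of tested genes, of which 30.2% higher and 32.9% lower). Groups did not overlap in CPM for 33 members that were higher and 32 that were lower (41.1%, against 32.0% of tested genes, of which 15.2% higher and 16.8% lower). The balance of rises and falls depended on the scaling: upper-quartile factors gave 17 up and 30 down (6.78% and 15.1% of all genes tested), and the authors' FPKM with a pseudocount of 0.1 gave 12 up and 33 down (5.74% and 17.5%), where the log2 fold change of the median tested gene moved by -0.10 and -0.14. Upper-quartile factors ended the calls of Slc38a2, Slc12a4, Slc31a1, Slc25a33, Slc7a6os and Slc49a4 (adjusted p 0.0511 to 0.112), and FPKM ended those and the calls of Slc3a2, Slc7a8, Slc38a1, Slc9a4 and Slc39a1 (adjusted p 0.052 to 0.209), all of them rises. Of the calls, 16 of the 23 rises and 5 of the 14 falls held whichever single library was left out. The falls numbered 5 without LPS 2, 7 without CON 3, 8 without CON 2 and 8 without LPS 1. Over all tested genes the falls numbered 704, 660, 750 and 958 in the same order, against 1056 with all 9 libraries. Of 26 transporters listed for their known part in macrophages, 25 were members, of which 9 rose and 3 fell (48%, against 18.3% of tested genes). With the block 10 rose and 4 fell (56%, against 41.8%). The list was chosen with earlier results of these data known, so these shares are a description and not a test.

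SUR against LPS gave 18 members higher and 20 lower, 24.1% of members against 17.2% of tested genes. The members higher in SUR were 11.4% against 9.29% of tested genes, and those lower were 12.7% against 7.93%. Under the replicate block 43 were higher and 36 lower (50% of members, 45.3% of tested genes, of which 22.6% higher and 22.7% lower), and within numbers 69 were higher and 51 lower in all 3 pairs (75.9% against 69.3%, of which 33.7% higher and 35.6% lower). Groups did not overlap for 37 higher and 29 lower members (41.8%, against 34.9% of tested genes, of which 17.8% higher and 17.2% lower). Upper-quartile factors gave 31 up and 12 down (14.1% and 5.46% of all genes tested), and FPKM gave 35 up and 9 down (16.7% and 4.23%). Upper-quartile factors ended the calls of Slc3a2, Slc9a4, Slc12a4, Slc25a37, Slc39a1, Slc39a6, Slc25a17 and Slc7a6os (adjusted p 0.053 to 0.128), and FPKM ended those and the calls of Slc38a1, Slc20a1 and Slc11a2 (adjusted p 0.078 to 0.286), all of them lower in SUR. The members higher in SUR numbered 4 without SUR 2, 9 without LPS 2, 10 without LPS 1, 10 without SUR 3 and 11 without LPS 3, and those lower 11 without LPS 2, 11 without SUR 3 and 12 without SUR 2. Over all tested genes those higher numbered 628, 682, 942, 694 and 735 in the same order, and those lower 615, 561 and 580. With all 9 libraries they numbered 1048 and 895. Of the 25 transporters listed for macrophages (a choice made with earlier results known), 2 were higher and 7 lower (36%, against 17.2% of tested genes). With the block 5 were higher and 11 lower (64%, against 45.3%). This comparison shares the LPS libraries with LPS against CON, so both values of each member are given side by side and no measure of their likeness is given. SUR against CON, in contrast, had 1 called member (0.633%, against 0.425% of tested genes, of which 0.39% higher and 0.0355% lower).

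**Figure D1:**
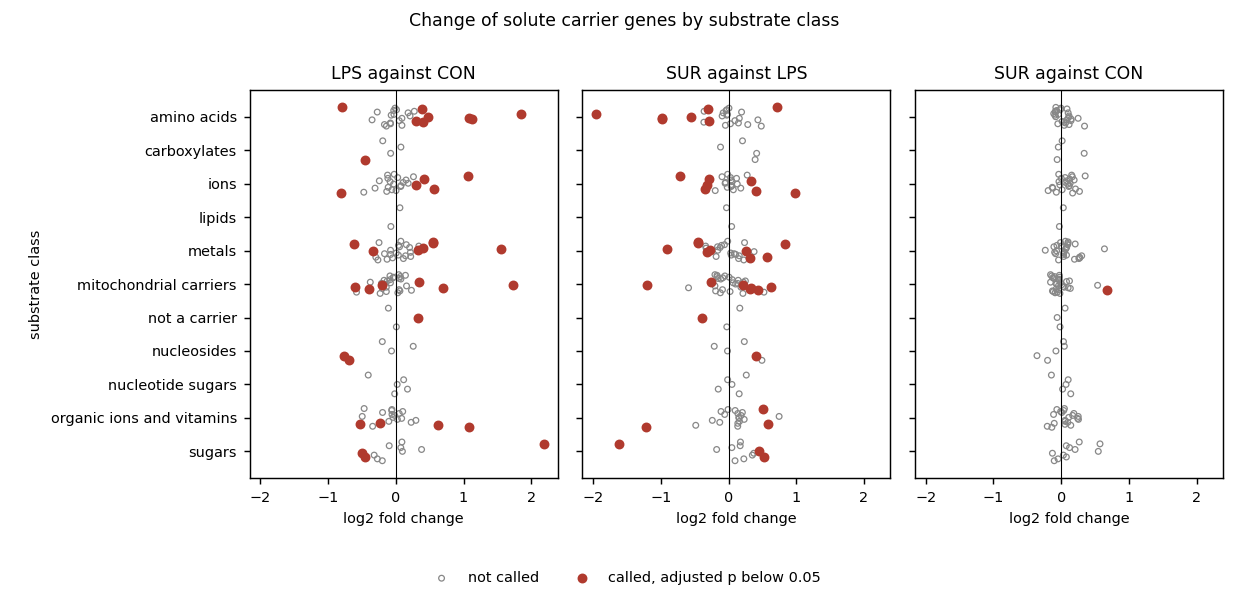
Log2 fold change (x axis) of each of the 158 solute carrier genes by substrate class (y axis) in the 3 comparisons; filled points passed the edgeR test at an adjusted p below 0.05 and open points did not. The LPS against CON panel has 37 filled points, the SUR against LPS panel 38 and the SUR against CON panel 1, and the sugar carrier Slc2a6 lies farthest to the right in the LPS against CON panel.

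Carriers of amino acids and peptides included Slc7a2, Slc16a10 and Slc15a3, each over 2-fold higher in LPS. Of 25 members, 7 rose and 1 fell in LPS against CON (32%, against 18.3% of all tested genes). In SUR against LPS, 1 was higher and 6 were lower (28%, against 17.2%). With the replicate block these counts were 8 and 3 (44%, against 41.8%), and 5 and 7 (48%, against 45.3%). Slc7a2, the cationic amino acid transporter CAT-2 that brings arginine into macrophages (chromosome 8, 40862341 to 40922070, plus strand of GRCm38, as the deposited table gives it, like the other gene positions), stood at 29.6, 32.0 and 32.5 CPM in CON, 87.7, 122 and 128 CPM in LPS, and 23.1, 32.1 and 31.9 CPM in SUR (libraries 1, 2 and 3 in this order, here and for each gene given by library). All 3 LPS libraries lay above every CON and SUR library, and CON and SUR overlapped. It was 3.58-fold higher in LPS than in CON (log2 fold change 1.84 ± 0.166 (SE), edgeR adjusted p = 0.000134) and 3.87-fold lower in SUR than in LPS (log2 fold change -1.95 ± 0.167 (SE), edgeR adjusted p = 0.000235). Within numbers the log2 CPM differences of SUR from LPS were -1.92, -1.92 and -2.0. Slc16a10, which carries aromatic amino acids and thyroid hormone, measured 91.2, 62.7 and 60.9 CPM in CON, 178, 146 and 146 CPM in LPS, and 95.4, 72.7 and 69.8 CPM in SUR. Here library 1 was the highest of each group, and LPS again stood clear of the other groups. The difference was 2.19-fold for LPS over CON (log2 fold change 1.13 ± 0.181 (SE), edgeR adjusted p = 0.00255) and 1.98-fold lower for SUR (log2 fold change -0.98 ± 0.180 (SE), edgeR adjusted p = 0.00611).

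Slc15a3, a lysosomal transporter of histidine and small peptides, including bacterial ones, had 91.4, 76.4 and 76.7 CPM in CON, 184, 171 and 164 CPM in LPS, and 96.3, 84.5 and 82.7 CPM in SUR. It was 2.12-fold higher in LPS (log2 fold change 1.08 ± 0.0945 (SE), edgeR adjusted p = 0.00011) and 1.97-fold lower in SUR than in LPS (log2 fold change -0.98 ± 0.0942 (SE), edgeR adjusted p = 0.000325). Its relative Slc15a4, which scaffolds endosomal toll-like receptor signalling, stood at 34.4 ± 0.702 CPM in CON, 36.6 ± 3.40 CPM in LPS and 40.9 ± 1.90 CPM in SUR (mean ± SD, n = 3, as in each such value). It was called only in SUR against CON with the block (adjusted p = 0.321 without it and 0.0426 with it). Among the heteromeric exchangers of large neutral amino acids, the shared heavy chain Slc3a2 (CD98) stood at 210.2 ± 16.9 CPM in CON, 276 ± 15.5 CPM in LPS and 223 ± 13.1 CPM in SUR (log2 fold change 0.39 ± 0.0804 (SE), edgeR adjusted p = 0.00905 for LPS; -0.31 and 0.0303 for SUR against LPS). Its light chain Slc7a8 (LAT2) measured 122 ± 3.83 CPM, 168 ± 23.5 CPM and 115 ± 6.65 CPM in the same order, higher in LPS (log2 fold change 0.47, adjusted p = 0.011) and lower in SUR than in LPS (log2 fold change -0.55, adjusted p = 0.00583). The light chain Slc7a5 (LAT1) split by replicate number instead, with 261, 157 and 157 CPM in CON, 235, 167 and 162 CPM in LPS, and 245, 162 and 152 CPM in SUR, and its log2 fold changes were -0.03 and -0.01. The Slc3a2 call in SUR against LPS was lost without LPS 1, LPS 2, SUR 2 or SUR 3 (adjusted p 0.0769 to 0.118). Counts were whole in only 1 of the 9 libraries for Slc3a2 and in 5 for Slc7a5.

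The sodium-coupled transporters of small neutral amino acids were mixed. Slc38a1 (SNAT1) measured 198 ± 1.80 CPM in CON, 244 ± 13.6 CPM in LPS and 199.6 ± 2.00 CPM in SUR (log2 fold change 0.30 ± 0.0583 (SE), edgeR adjusted p = 0.00652 and -0.29 for SUR against LPS, adjusted p = 0.0095). Slc38a2 (SNAT2), induced by amino acid shortage, rose from 90.5 ± 11.4 CPM to 119.6 ± 16.1 CPM (log2 fold change 0.40 ± 0.118 (SE), edgeR adjusted p = 0.0448). The Slc38a2 call was lost without CON 2, CON 3, any 1 LPS library, SUR 2 or SUR 3 (adjusted p 0.0519 to 0.142). In SUR it stood at 93.0 ± 5.36 CPM, and SUR against LPS missed the threshold without the block (adjusted p = 0.0672) and passed it with the block (adjusted p = 0.000365). Slc1a4 (ASCT1), a carrier of alanine, serine and cysteine, went the other way with 8.75, 10.5 and 9.94 CPM in CON, 5.32, 6.33 and 5.21 CPM in LPS, and 10.5, 8.63 and 8.42 CPM in SUR. Every LPS library lay below every CON and SUR library (log2 fold change -0.79 ± 0.142 (SE), edgeR adjusted p = 0.00451; 0.71 for SUR against LPS, adjusted p = 0.00916). The glutamine carrier Slc1a5 (ASCT2) measured 241 ± 36.3 CPM in CON, 239 ± 32.2 CPM in LPS and 240.0 ± 32.7 CPM in SUR, with log2 fold changes of -0.01 and 0.01. Slc6a6 (TauT), the amino acid class member with the highest FPKM, stood at 1203 ± 61.5 CPM, 1212 ± 89.3 CPM and 1192 ± 92.3 CPM, in CON, LPS and SUR, and neither passed a test with or without the block. A larger difference not called without the block was that of Slc43a2 (LAT4), chosen after its values were seen, with 348, 411 and 485 CPM in CON, 292, 404 and 433 CPM in LPS, and 407, 558 and 613 CPM in SUR. Within numbers SUR exceeded LPS by 0.48, 0.47 and 0.50 in log2 CPM (adjusted p = 0.134 without the block and 1.75e-05 with it).

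**Figure D2:**
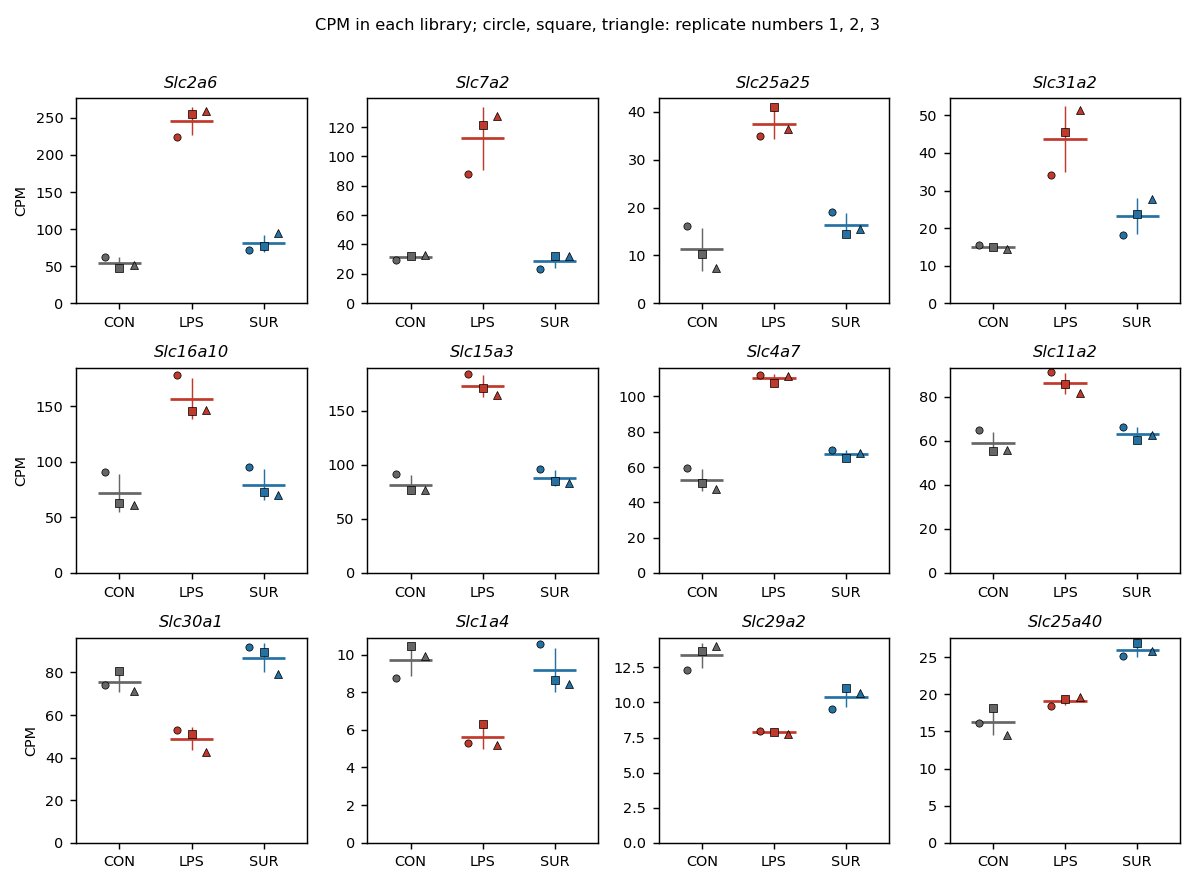
CPM (y axes, starting at 0) in each library of 12 solute carrier genes by group (x axis), with circles, squares and triangles for replicate numbers 1, 2 and 3, a horizontal line for the group mean and a vertical line for the mean ± SD of 3 libraries. Slc2a6, Slc7a2, Slc25a25, Slc31a2, Slc16a10, Slc15a3, Slc4a7 and Slc11a2 were higher in every LPS library than in any CON or SUR library, Slc30a1, Slc1a4 and Slc29a2 were lower in every LPS library, and Slc25a40 was highest in SUR.

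Called metal carriers included genes of copper, iron and zinc transport. Of 28 members, 5 rose and 2 fell in LPS against CON (25%, against 18.3% of all tested genes). In SUR against LPS, 4 were higher and 5 lower (32.1%, against 17.2%). With the block these counts were 10 and 6 (57.1%, against 41.8%), and 7 and 10 (60.7%, against 45.3%). Slc31a2 (CTR2), a copper transporter of intracellular membranes (chromosome 4, 62280393 to 62299674, plus strand), stood at 15.4, 14.9 and 14.4 CPM in CON, 34.0, 45.6 and 51.5 CPM in LPS, and 18.1, 23.8 and 27.7 CPM in SUR. The 3 groups did not overlap, with SUR between CON and LPS. It was 2.93-fold higher in LPS than in CON (log2 fold change 1.55 ± 0.184 (SE), edgeR adjusted p = 0.00054) and 1.88-fold lower in SUR than in LPS (log2 fold change -0.91 ± 0.179 (SE), edgeR adjusted p = 0.00849). The plasma membrane copper importer Slc31a1 (CTR1) rose less, from 106 ± 7.28 CPM to 139.9 ± 19.9 CPM (log2 fold change 0.40 ± 0.117 (SE), edgeR adjusted p = 0.0436), and was 111 ± 10.7 CPM in SUR. The Slc31a1 call was lost without any 1 CON library, LPS 2, LPS 3, SUR 2 or SUR 3 (adjusted p 0.0569 to 0.142).

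In iron transport, Slc11a2 (DMT1), which brings ferrous iron out of endosomes, measured 64.9, 55.4 and 55.9 CPM in CON, 90.9, 85.8 and 81.5 CPM in LPS, and 66.2, 60.2 and 62.6 CPM in SUR. LPS exceeded the other groups without overlap (log2 fold change 0.55 ± 0.0804 (SE), edgeR adjusted p = 0.00156), and SUR was lower than LPS (log2 fold change -0.45 ± 0.0803 (SE), edgeR adjusted p = 0.00542). Slc25a37 (mitoferrin 1), which imports iron into mitochondria, rose from 88.1 ± 13.2 CPM to 129 ± 12.2 CPM and was 94.4 ± 5.64 CPM in SUR (log2 fold change 0.56 ± 0.115 (SE), edgeR adjusted p = 0.00927; -0.46 for SUR against LPS, adjusted p = 0.025). Its counts were not whole in any library, as happens where reads are divided between features. Mitoferrin 2 (Slc25a28), chosen after its values were seen, went the other way but was not called without the block. It measured 23.2, 22.3 and 22.0 CPM in CON, 18.4, 20.1 and 18.3 CPM in LPS, and 23.5, 21.6 and 21.9 CPM in SUR. The cellular iron exporter Slc40a1 (ferroportin; chromosome 1, 45908070 to 45926532, minus strand) had 51.4, 70.3 and 66.1 CPM in CON, 45.4, 57.5 and 50.1 CPM in LPS, and 71.5, 79.6 and 75.3 CPM in SUR. SUR exceeded LPS without overlap (log2 fold change 0.57 ± 0.127 (SE), edgeR adjusted p = 0.0155), while the log2 CPM differences of LPS from CON were -0.18, -0.29 and -0.40 within numbers, which passed the test only with the block (adjusted p = 0.16 without it and 0.00292 with it). Slc11a1 (NRAMP1), the phagosomal metal pump that limits intracellular bacteria, split by number in every group and passed no test (0.07 and -0.01). Slc39a14 (ZIP14), an importer of zinc and iron, measured 66.9 ± 5.57 CPM in CON, 77.9 ± 11.8 CPM in LPS and 68.6 ± 5.15 CPM in SUR, and passed only with the block, higher in LPS than in CON (adjusted p = 0.267 without it and 0.0052 with it) and lower in SUR than in LPS (0.346 and 0.0139). Slc39a8 was not analysed here. The Slc25a37 call in SUR against LPS was lost without LPS 2, LPS 3 or any 1 SUR library (adjusted p 0.0501 to 0.0967). Leaving out LPS 3 or SUR 2 (adjusted p 0.0563 to 0.0736) ended the call of Slc40a1.

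Zinc carriers moved in different directions. Slc30a1 (ZnT1), the zinc exporter of the plasma membrane whose gene is induced by zinc through the factor MTF1, stood at 74.1, 80.5 and 71.4 CPM in CON, 53.1, 51.0 and 42.6 CPM in LPS, and 92.0, 89.4 and 79.3 CPM in SUR. Every LPS library was below every CON and SUR library, so LPS was 1.54-fold lower than CON (log2 fold change -0.62 ± 0.0981 (SE), edgeR adjusted p = 0.00233) and SUR 1.78-fold higher than LPS (log2 fold change 0.83 ± 0.0982 (SE), edgeR adjusted p = 0.000845). SUR also exceeded CON by 0.31, 0.15 and 0.15 within numbers (adjusted p = 0.589 without the block and 0.0243 with it). The importer Slc39a1 (ZIP1) was higher in LPS (224 ± 5.66 CPM) than in CON (178 ± 12.9 CPM; log2 fold change 0.33, adjusted p = 0.00755) and lower in SUR (186 ± 2.83 CPM; log2 fold change -0.27, adjusted p = 0.0222). Slc39a3 (ZIP3) was lower in LPS (-0.33, adjusted p = 0.0177) and higher in SUR than in LPS (0.27, adjusted p = 0.0488), and Slc39a6 (ZIP6) was lower in SUR than in LPS (-0.31, adjusted p = 0.0262). The magnesium transporter Slc41a1 was higher in SUR (53.8 ± 3.95 CPM) than in LPS (43.0 ± 3.34 CPM; log2 fold change 0.32, adjusted p = 0.025). The Slc39a1 call in SUR against LPS was lost without LPS 2, LPS 3, SUR 2 or SUR 3 (adjusted p 0.0519 to 0.0857). Leaving out CON 3, LPS 1 or LPS 2 (adjusted p 0.0541 to 0.0733) ended the call of Slc39a3 in LPS against CON. Slc39a3 in SUR against LPS missed the threshold without any 1 CON library, any 1 LPS library, SUR 2 or SUR 3 (adjusted p 0.0631 to 0.19). The Slc39a6 call was lost without LPS 1, LPS 2, SUR 2 or SUR 3 (adjusted p 0.0682 to 0.105). Leaving out LPS 1, LPS 2, SUR 2 or SUR 3 (adjusted p 0.0703 to 0.116) ended the call of Slc41a1.

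The promoter of Slc30a1 is shown because metals are known to act on this gene there. RefSeq (GRCm38.p6) places the 250 bases before its start site at chr1:191906531-191906780 on the plus strand. They hold 1 match to TGCNCNC, a loose form of the metal response element, on the minus strand, in capitals, beginning at -43 from the start site:
Slc30a1: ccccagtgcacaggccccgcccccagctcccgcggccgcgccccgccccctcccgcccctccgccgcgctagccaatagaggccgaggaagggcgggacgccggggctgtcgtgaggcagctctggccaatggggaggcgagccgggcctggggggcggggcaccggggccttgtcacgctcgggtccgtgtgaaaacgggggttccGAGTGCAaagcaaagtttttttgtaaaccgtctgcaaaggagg
The window of Slc30a1 also held a match to TGACNNNGC, the antioxidant response element, at -82, not in capitals. Promoters were matched for 120 of the 158 members, with 167 start sites. A match to TGCNCNC, on either strand, stood in 51.5% of these 167 windows and in 44.4% of all 32851 promoter windows in the table. A match describes letters, not a working site. Of 24 listed genes of other proteins that handle metals, 20 were tested. With the block, 5 rose and 2 fell in LPS against CON (35%, against 41.8% of all tested genes). Without it, 3 rose and 0 fell (15%, near the 18.3% of all tested genes). These 3, named as all of the rises, were the Golgi copper pump Atp7a (log2 fold change 0.94, edgeR adjusted p = 0.00011), the heme exporter Flvcr1 (log2 fold change 0.60, edgeR adjusted p = 0.00176) and the transferrin receptor Tfrc (log2 fold change 0.42, edgeR adjusted p = 0.0193). Atp7a (log2 fold change -0.56) and Flvcr1 (-0.45) were also lower in SUR than in LPS. The metallothioneins Mt1 and Mt2, zinc-binding proteins induced through the same factor as Slc30a1, were not called without the block: Mt1 stood at 309 ± 74.9 CPM in CON, 320.1 ± 79.6 CPM in LPS and 332 ± 63.8 CPM in SUR.

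Ion carriers included the bicarbonate, phosphate, sulfate and chloride transporters. Of 24 members, 4 rose and 1 fell in LPS against CON (20.8%, near the 18.3% of all tested genes). In SUR against LPS, 3 were higher and 4 lower (29.2%, against 17.2%). The block gave 4 and 4 (33.3%, against 41.8%), and 6 and 5 (45.8%, against 45.3%). Slc4a7 (NBCn1), a sodium and bicarbonate importer that raises intracellular pH (chromosome 14, 14703011 to 14799944, plus strand), had 59.6, 51.2 and 47.7 CPM in CON, 112, 108 and 111 CPM in LPS, and 69.4, 64.9 and 68.2 CPM in SUR. The 3 groups did not overlap, and SUR lay between CON and LPS. LPS was 2.09-fold over CON (log2 fold change 1.06 ± 0.0832 (SE), edgeR adjusted p = 7.14e-05) and SUR 1.63-fold below LPS (log2 fold change -0.71 ± 0.0824 (SE), edgeR adjusted p = 0.00078). The phosphate importer Slc20a1 (PiT-1) rose from 208 ± 5.46 CPM to 307 ± 30.1 CPM (log2 fold change 0.56 ± 0.0765 (SE), edgeR adjusted p = 0.00111) and was 241 ± 3.72 CPM in SUR (-0.35 against LPS, adjusted p = 0.0139). Slc26a11, a sulfate and anion transporter, moved the other way, with 33.1, 26.4 and 23.4 CPM in CON, 20.2, 13.1 and 14.0 CPM in LPS, and 37.2, 27.3 and 28.7 CPM in SUR. It was 1.75-fold lower in LPS (log2 fold change -0.81 ± 0.201 (SE), edgeR adjusted p = 0.0228) and 1.97-fold higher in SUR than in LPS (log2 fold change 0.98 ± 0.201 (SE), edgeR adjusted p = 0.0105). The Slc26a11 call in LPS against CON was lost without CON 1, CON 2, LPS 2 or LPS 3 (adjusted p 0.0558 to 0.0874). Leaving out LPS 2, LPS 3, SUR 2 or SUR 3 (adjusted p 0.0508 to 0.0543) ended the call of Slc20a1 in SUR against LPS.

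Smaller differences in this class were those of the sodium/proton exchanger Slc9a4, the potassium chloride cotransporter Slc12a4 (KCC1) and the sulfate transporter Slc26a2. Slc9a4 and Slc12a4 were higher in LPS than in CON (log2 fold changes 0.41 and 0.30, edgeR adjusted p = 0.00649 and 0.0336) and lower in SUR than in LPS (-0.28 and -0.32, adjusted p = 0.0377 and 0.0273). Slc26a2 was called in SUR against LPS but not in the other comparisons, and was higher in SUR (log2 fold change 0.40, adjusted p = 0.0113). The Slc12a4 call in LPS against CON was lost without CON 2, CON 3, LPS 2, LPS 3 or SUR 2 (adjusted p 0.0500 to 0.119). Leaving out LPS 2, LPS 3, SUR 1 or SUR 2 (adjusted p 0.069 to 0.0967) ended the call of Slc12a4 in SUR against LPS. Slc9a4 in SUR against LPS missed the threshold without CON 2, any 1 LPS library, SUR 1 or SUR 3 (adjusted p 0.0531 to 0.111). The Slc26a2 call was lost without SUR 2 (adjusted p = 0.0562). Without the libraries numbered 1, Slc9a4 in SUR against LPS also missed the threshold (adjusted p = 0.0828). The sodium potassium chloride cotransporter Slc12a2 (NKCC1) measured 47.1 ± 2.38 CPM in CON, 46.1 ± 3.28 CPM in LPS and 50.4 ± 2.60 CPM in SUR and was called only with the block, higher in SUR than in LPS (adjusted p = 0.0327). Of 24 listed ion pumps and channels that were tested, 9 rose and 3 fell in LPS against CON with the block (50%, against 41.8% of all tested genes). Without it, 3 rose and 0 fell (12.5%, against 18.3%). They include the potassium channels Kcna3, from 0.434 ± 0.200 CPM to 1.99 ± 0.238 CPM (log2 fold change 2.17, edgeR adjusted p = 0.00167), and Kcnj2, from 11.5 ± 0.649 CPM to 22.1 ± 3.64 CPM (log2 fold change 0.94, edgeR adjusted p = 0.00122). In SUR against LPS, Kcna3 was lower (log2 fold change -2.07, edgeR adjusted p = 0.00261) and the volume-regulated anion channel subunit Lrrc8a higher (log2 fold change 0.45, edgeR adjusted p = 0.0208).

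Mitochondrial carriers of the SLC25 family, which exchange metabolites across the inner membrane (and, for Slc25a17, the peroxisomal membrane), had 31 members. Mitoferrins 1 and 2 (Slc25a37 and Slc25a28) were counted among the metal carriers. In LPS against CON 3 rose and 3 fell (19.4%, near the 18.3% of all tested genes). In SUR against LPS 5 were higher and 2 lower (22.6%, against 17.2%). The block gave 5 and 10 (48.4%, against 41.8%), and 8 and 7 (48.4%, against 45.3%). The strongest was Slc25a25, a calcium-regulated exchanger of ATP-Mg and phosphate (chromosome 2, 32414487 to 32451470, minus strand), with 16.1, 10.3 and 7.38 CPM in CON, 35.0, 41.1 and 36.5 CPM in LPS, and 19.1, 14.5 and 15.5 CPM in SUR. Every LPS library exceeded every other, and the CON libraries differed among themselves by more than 2-fold. LPS was 3.33-fold over CON (log2 fold change 1.74 ± 0.245 (SE), edgeR adjusted p = 0.00133), with differences of 1.12, 1.99 and 2.29 in log2 CPM within numbers, and SUR was 2.29-fold below LPS (log2 fold change -1.20 ± 0.239 (SE), edgeR adjusted p = 0.00926).

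The 250 bases before a start site of Slc25a25 are shown because it holds the cAMP response element TGACGTCA, a site bound by CREB, which stood in 1.8% of member windows (Slc25a25, Slc25a36 and Slc38a6) and in 1.55% of all windows. This motif was added to the search after the promoters had been looked at. The window lies at chr2:32424067-32424316 on the minus strand, with the match in capitals at -150 from the start site:
Slc25a25: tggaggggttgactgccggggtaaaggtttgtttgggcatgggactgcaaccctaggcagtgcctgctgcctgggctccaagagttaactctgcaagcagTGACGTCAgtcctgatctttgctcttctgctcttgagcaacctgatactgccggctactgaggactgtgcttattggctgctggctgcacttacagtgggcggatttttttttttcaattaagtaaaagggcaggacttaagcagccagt
The letters are their own reverse complement and were counted once. They share TGAC with the antioxidant response element TGACNNNGC, which stood in 18.0% of member windows against 10.2% of all. The ATF4 response element TGATGNAA stood in 2.99% of member windows and 3.45% of all. The window of another start site of Slc25a25 held antioxidant (-100 and -31) and metal (-15) response element matches but no cAMP response element. Slc25a36, a mitochondrial pyrimidine nucleotide carrier that also holds the cAMP response element, was higher in SUR than in LPS (log2 fold change 0.33, adjusted p = 0.0122) and not called in LPS against CON (log2 fold change -0.20, adjusted p = 0.0929). The Slc25a36 call was lost without SUR 2 (adjusted p = 0.0675).

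Slc25a33, another pyrimidine nucleotide carrier, rose from 6.07 ± 0.942 CPM to 9.81 ± 1.59 CPM (log2 fold change 0.69 ± 0.189 (SE), edgeR adjusted p = 0.0338) and was 6.52 ± 1.17 CPM in SUR. Slc25a17 (PMP34), of the peroxisome, rose from 40.6 ± 2.11 CPM to 51.3 ± 1.25 CPM and was 42.8 ± 1.19 CPM in SUR (log2 fold change 0.34 ± 0.0628 (SE), edgeR adjusted p = 0.00541; -0.26 for SUR against LPS, adjusted p = 0.0213). Slc25a30 fell, with 16.3, 15.5 and 16.0 CPM in CON, 10.5, 9.80 and 11.2 CPM in LPS, and 16.7, 15.9 and 16.2 CPM in SUR. Its LPS libraries stood 1.52-fold below CON (log2 fold change -0.61 ± 0.0856 (SE), edgeR adjusted p = 0.00132) and SUR was 1.55-fold above LPS (log2 fold change 0.63 ± 0.0855 (SE), edgeR adjusted p = 0.00148). The mitochondrial glycine carrier Slc25a38, needed for heme synthesis, fell in LPS (log2 fold change -0.39, adjusted p = 0.00714) and was higher in SUR than in LPS (log2 fold change 0.32, adjusted p = 0.0217), with counts that were not whole in any library. Slc25a24, like Slc25a25 an ATP-Mg and phosphate exchanger, fell by 0.21 on the log2 scale in LPS (adjusted p = 0.0496) and was higher in SUR by 0.21 (adjusted p = 0.0453). The Slc25a33 call was lost without CON 2, CON 3, LPS 1, LPS 2 or SUR 2 (adjusted p 0.0503 to 0.124). Leaving out LPS 2, LPS 3, SUR 2 or SUR 3 (adjusted p 0.0513 to 0.0875) ended the call of Slc25a17 in SUR against LPS. Slc25a38 in SUR against LPS missed the threshold without LPS 2, LPS 3 or any 1 SUR library (adjusted p 0.0655 to 0.0831). The Slc25a24 call in LPS against CON was lost without any 1 of the 9 libraries (adjusted p 0.0682 to 0.17). Leaving out any 1 of the 9 libraries (adjusted p 0.0632 to 0.205) ended the call of Slc25a24 in SUR against LPS.

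Sugar carriers contained the largest rise of any member. Of 11 members, 1 rose and 2 fell in LPS against CON (27.3%, against 18.3% of all tested genes). In SUR against LPS, 2 were higher and 1 lower (27.3%, against 17.2%). With the block these counts were 2 and 5 (63.6%, against 41.8%), and 6 and 1 (63.6%, against 45.3%). Slc2a6 (GLUT6), a hexose transporter of lysosomal membranes (chromosome 2, 27021363 to 27028000, minus strand), measured 62.9, 47.7 and 52.1 CPM in CON, 224, 256 and 259 CPM in LPS, and 71.2, 76.8 and 94.0 CPM in SUR. LPS libraries lay far above the rest, and each SUR library lay above each CON library. LPS was 4.54-fold over CON (log2 fold change 2.18 ± 0.135 (SE), edgeR adjusted p = 4.02e-05) and SUR 3.05-fold below LPS (log2 fold change -1.61 ± 0.132 (SE), edgeR adjusted p = 0.00021). The SLC37 family includes exchangers of glucose 6-phosphate and phosphate of the endoplasmic reticulum membrane. Slc37a2 fell from 153 ± 18.7 CPM to 108 ± 12.0 CPM (log2 fold change -0.50 ± 0.116 (SE), edgeR adjusted p = 0.0162), and in SUR it stood at 139.6 ± 12.6 CPM (SUR against LPS, adjusted p = 0.0582 without the block and 1.46e-05 with it). Slc37a4, the glucose 6-phosphate translocase, fell from 22.8 ± 2.13 CPM to 16.7 ± 1.62 CPM (log2 fold change -0.45 ± 0.113 (SE), edgeR adjusted p = 0.0235) and was 24.1 ± 2.20 CPM in SUR (log2 fold change 0.53 ± 0.112 (SE), edgeR adjusted p = 0.0125). Slc37a1 was not called in LPS against CON and was higher in SUR (18.2 ± 1.97 CPM) than in LPS (13.3 ± 1.33 CPM; log2 fold change 0.45, adjusted p = 0.035). The Slc37a2 call was lost without CON 3 or LPS 2 (adjusted p 0.0571 to 0.0611). Leaving out CON 1, CON 3, LPS 1 or LPS 2 (adjusted p 0.0543 to 0.085) ended the call of Slc37a4 in LPS against CON. Slc37a4 in SUR against LPS missed the threshold without LPS 2 or SUR 2 (adjusted p 0.0508 to 0.0601). The Slc37a1 call was lost without CON 3, any 1 LPS library or any 1 SUR library (adjusted p 0.053 to 0.131).

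Among 5 carriers of nucleosides and nucleotides, 0 rose and 2 fell in LPS against CON (40%, against 18.3% of all tested genes). The block left these counts the same, where 41.8% of tested genes were called. In SUR against LPS 1 was higher and 0 lower (20%, against 17.2%), and 2 and 0 with the block (40%, against 45.3%). Slc29a2 (ENT2), an equilibrative nucleoside transporter (chromosome 19, 5017599 to 5031972, plus strand), had 12.3, 13.7 and 14.0 CPM in CON, 7.99, 7.89 and 7.79 CPM in LPS, and 9.57, 11.0 and 10.7 CPM in SUR. The groups formed 3 separate levels, CON above SUR above LPS (log2 fold change -0.76 ± 0.102 (SE), edgeR adjusted p = 0.00103 for LPS against CON; 0.40 for SUR against LPS, adjusted p = 0.027). Slc29a3 (ENT3), its lysosomal relative, measured 114, 161 and 172 CPM in CON, 74.4, 102 and 99.9 CPM in LPS, and 105, 152 and 131 CPM in SUR. LPS was 1.62-fold below CON (log2 fold change -0.69 ± 0.194 (SE), edgeR adjusted p = 0.0371). SUR against LPS missed the threshold without the block (adjusted p = 0.122) and passed it with the block (adjusted p = 6.02e-05), with SUR higher by 0.50, 0.59 and 0.39 within numbers. Slc29a1 (ENT1) stood at 114 ± 12.8 CPM in CON, 109 ± 13.9 CPM in LPS and 108 ± 9.31 CPM in SUR, and the concentrative transporter Slc28a2, whose counts were not whole in any library, at 8.88 ± 1.31 CPM, 10.6 ± 1.34 CPM and 9.17 ± 2.34 CPM; neither was called with or without the block. The Slc29a2 call in SUR against LPS was lost without any 1 LPS library, SUR 2 or SUR 3 (adjusted p 0.0589 to 0.125). Leaving out CON 2, CON 3, any 1 LPS library or SUR 3 (adjusted p 0.0596 to 0.133) ended the call of Slc29a3.

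Of 20 carriers of organic ions and vitamins, 2 rose and 2 fell in LPS against CON (20%, near the 18.3% of all tested genes). In SUR against LPS, 2 were higher and 1 lower (15%, near the 17.2%). The block gave 4 and 6 (50%, against 41.8%), and 7 and 3 (50%, against 45.3%). Slco4a1 (OATP4A1), a carrier of organic anions and thyroid hormone, had 5.31, 5.60 and 7.02 CPM in CON, 7.35, 15.3 and 15.4 CPM in LPS, and 5.53, 5.56 and 5.20 CPM in SUR. Library LPS 1 was close to CON, while LPS 2 and LPS 3 were at about the same higher level. The rise was 2.12-fold (log2 fold change 1.09 ± 0.265 (SE), edgeR adjusted p = 0.0207) and SUR was 2.33-fold below LPS (log2 fold change -1.22 ± 0.266 (SE), edgeR adjusted p = 0.0134). Slc49a4, of the lysosomal membrane, rose from 26.0 ± 6.30 CPM to 40.1 ± 2.39 CPM (log2 fold change 0.62 ± 0.188 (SE), edgeR adjusted p = 0.0496). Falls were those of the choline transporter-like Slc44a2 (log2 fold change -0.24, adjusted p = 0.035) and of the lysosomal carrier Slc46a3 (log2 fold change -0.52, adjusted p = 0.0406), and the latter was higher in SUR than in LPS (log2 fold change 0.58, adjusted p = 0.0278). The multivitamin transporter Slc5a6 was higher in SUR than in LPS (log2 fold change 0.51, adjusted p = 0.0488). The reduced folate carrier Slc19a1 measured 74.2 ± 7.48 CPM, 71.4 ± 2.69 CPM and 68.7 ± 0.959 CPM in CON, LPS and SUR. The Slco4a1 call in LPS against CON was lost without CON 1, CON 2, LPS 2 or LPS 3 (adjusted p 0.0552 to 0.0782). Leaving out LPS 2, LPS 3 or SUR 3 (adjusted p 0.0525 to 0.0545) ended the call of Slco4a1 in SUR against LPS. Slc49a4 missed the threshold without CON 2, CON 3, any 1 LPS library, SUR 2 or SUR 3 (adjusted p 0.0546 to 0.159). The Slc44a2 call was lost without CON 2, CON 3, LPS 1, LPS 2 or any 1 SUR library (adjusted p 0.059 to 0.123). Leaving out CON 1, CON 2, any 1 LPS library or SUR 2 (adjusted p 0.0695 to 0.135) ended the call of Slc46a3 in LPS against CON. Slc46a3 in SUR against LPS missed the threshold without any 1 LPS library, SUR 1 or SUR 2 (adjusted p 0.0561 to 0.0987). The Slc5a6 call was lost without any 1 CON library, LPS 1, LPS 2, SUR 2 or SUR 3 (adjusted p 0.057 to 0.167). Without the libraries numbered 1 the fall of Slc46a3 in LPS also missed the threshold (adjusted p = 0.0565).

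The promoter of Slc49a4 is shown because it is the only called riser among the 9 members with a kappaB site, the motif of NF-kappaB, in the 250 bases before a start site. That motif stood in 6.59% of member windows and in 3.9% of all windows. Not in capitals are the Slc49a4 matches to the ATF4 (-203), antioxidant (-160) and metal (-58) response elements. The window lies at chr16:35769371-35769620 on the minus strand (GRCm38.p6), with the match in capitals at -78 from the start site:
Slc49a4: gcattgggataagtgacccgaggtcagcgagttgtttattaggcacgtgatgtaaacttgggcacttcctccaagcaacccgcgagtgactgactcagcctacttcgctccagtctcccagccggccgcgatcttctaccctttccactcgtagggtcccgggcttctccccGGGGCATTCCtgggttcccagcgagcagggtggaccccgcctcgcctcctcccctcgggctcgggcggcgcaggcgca
The other 8 members with a match were Slc25a1, Slc25a10, Slc29a1, Slc37a4, Slc43a2, Slc6a12, Slc6a13 and Slc7a7, of which Slc37a4 fell in LPS and the rest were not called in any comparison without the block. With it, Slc43a2, described above, was called in all 3 comparisons, lower in LPS than in CON (adjusted p = 0.0298) and higher in SUR than in either, and Slc25a1 was lower in SUR than in LPS (adjusted p = 0.00318) and than in CON (adjusted p = 0.0376). The window of Slc2a6 held no match to any of the 5 motifs searched.

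The remaining classes held few calls without the block. Of 4 carriers of monocarboxylates and related acids, 0 rose and 1 fell in LPS against CON (25%, against 18.3% of all tested genes). In SUR against LPS, 0 were called (0%, against 17.2%). With the block these counts were 0 and 1 (25%, against 41.8%) in LPS against CON. In SUR against LPS, 2 were then higher and 1 lower (75%, against 45.3%). Slc16a13 fell in LPS from 18.1 ± 1.16 CPM to 13.2 ± 1.59 CPM (log2 fold change -0.45 ± 0.125 (SE), edgeR adjusted p = 0.0354). The Slc16a13 call was lost without any 1 CON library, LPS 1, LPS 2 or SUR 2 (adjusted p 0.0552 to 0.126). The lactate carrier Slc16a1 (MCT1) stood at 217 ± 30.9 CPM in CON, 229 ± 37.0 CPM in LPS and 211 ± 26.4 CPM in SUR and was called only with the block, lower in SUR than in LPS (adjusted p = 0.0428). Of 2 lipid carriers, the fatty acid transporter Slc27a1 (FATP1) measured 457 ± 36.9 CPM, 476 ± 40.0 CPM and 467 ± 45.6 CPM and passed no test with or without the block. None of 5 nucleotide sugar carriers was called in any of the 3 comparisons without the block. With the block, 1 was higher and 1 lower in LPS than in CON (40%, against 41.8% of tested genes). In SUR against LPS, 0 were higher and 1 lower with the block (20%, against 45.3%). Among the 3 members that are not carriers, Slc7a6os was higher in LPS (log2 fold change 0.33, adjusted p = 0.0413) and lower in SUR than in LPS (log2 fold change -0.39, adjusted p = 0.0218). It takes its name from its place beside the carrier gene Slc7a6. The Slc7a6os call in LPS against CON was lost without CON 2, CON 3, any 1 LPS library or SUR 3 (adjusted p 0.0518 to 0.128). Leaving out LPS 1, SUR 2 or SUR 3 (adjusted p 0.0671 to 0.0892) ended the call of Slc7a6os in SUR against LPS.

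**Figure D3:**
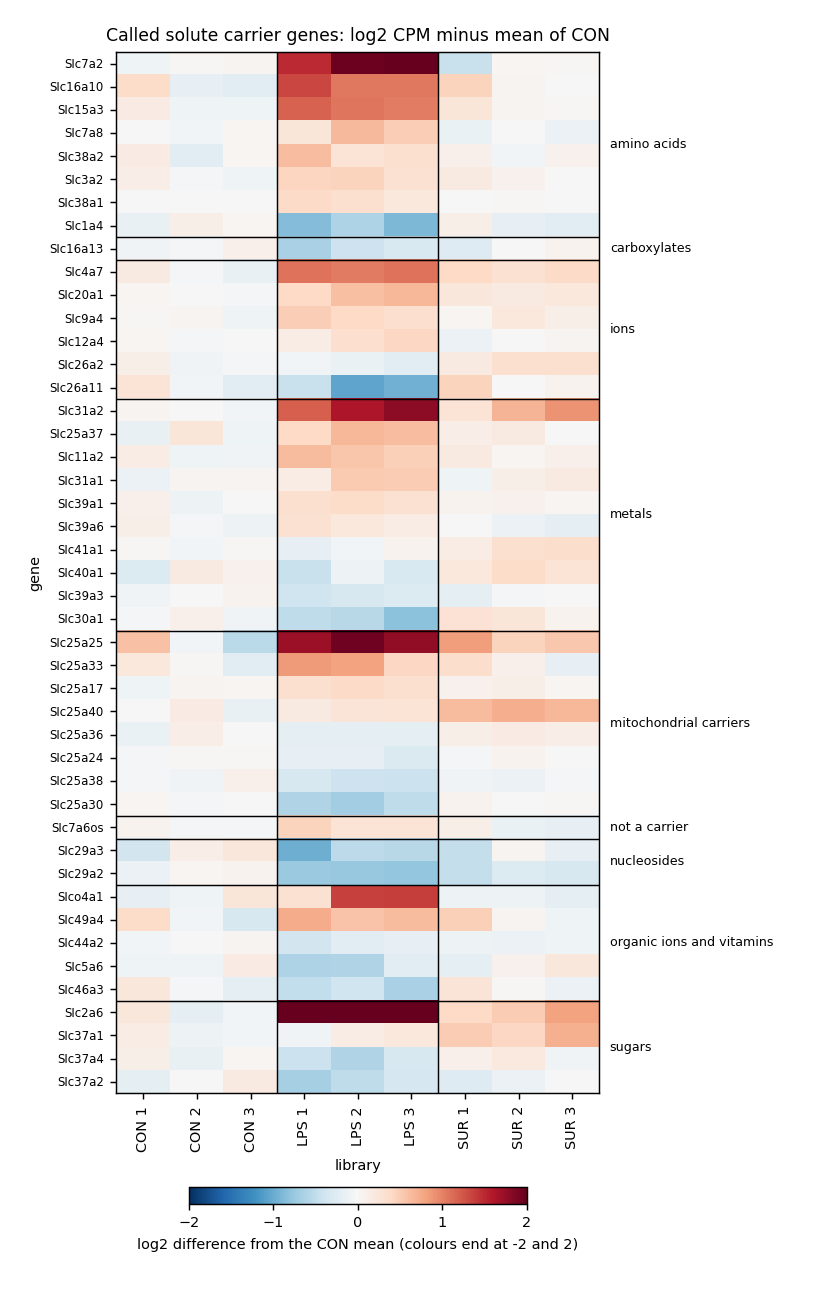
Heat map of the solute carrier genes called in any comparison and reported here (rows, by substrate class) in the 9 libraries (columns); colour is log2 CPM minus the CON mean, red higher and blue lower, ending at -2 and 2. The LPS columns hold the strong colours, the SUR columns are paler, and Slc25a40, Slc31a2, Slc2a6 and Slc25a25 stay red in SUR.

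SUR differed little from CON in these genes. Slc25a40, which imports glutathione into mitochondria, was the 1 member called, with 16.2, 18.2 and 14.6 CPM in CON, 18.4, 19.3 and 19.7 CPM in LPS, and 25.2, 27.0 and 25.8 CPM in SUR. Its SUR libraries lay above all others, and LPS lay above CON. SUR was 1.59-fold over CON (log2 fold change 0.67 ± 0.0933 (SE), edgeR adjusted p = 0.0277), with differences of 0.64, 0.56 and 0.82 within numbers, and was also higher than LPS (log2 fold change 0.44 ± 0.0930 (SE), edgeR adjusted p = 0.0119). The Slc25a40 call in SUR against CON was lost without CON 2, CON 3, LPS 2, LPS 3 or any 1 SUR library (adjusted p 0.0585 to 0.16). Leaving out SUR 2 (adjusted p = 0.0617) ended the call of Slc25a40 in SUR against LPS. At an unadjusted p below 0.05, 12 members were higher and 1 lower, where 6.24% of tested genes were higher and 2.99% lower. DESeq2 called 4 higher and 0 lower (1.52% and 0.224% of all genes it tested), and limma-voom 1 higher and 0 lower (0.408% and 0.0266%).

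With the replicate block, SUR against CON had 18 members higher and 5 lower (14.6% of members, 11.5% of tested genes, of which 7.37% higher and 4.18% lower), and without the libraries numbered 1 it had 10 higher and 0 lower (4.44% and 0.742% of tested genes). Within numbers, 55 members were higher and 30 lower in SUR in all 3 pairs (53.8% of members, 48.7% of tested genes, of which 23.2% higher and 25.4% lower). Groups did not overlap for 15 higher and 5 lower members (12.7%, against 15.0% of tested genes, of which 8.35% higher and 6.67% lower). Slc31a2, Slc2a6 and Slc4a7, which rose in LPS, were among those higher. Slc31a2 differed by 0.23, 0.67 and 0.94 in log2 CPM within numbers (adjusted p = 0.254 without the block and 0.00795 with it). Slc2a6 differed by 0.18, 0.69 and 0.85 (adjusted p = 0.135 and 0.00844), and Slc4a7 by 0.22, 0.34 and 0.52 (adjusted p = 0.142 and 0.00392). For these 3 genes the pair numbered 1 gave the smallest difference of the 3. Slc37a1 differed by 0.36, 0.51 and 0.76 (adjusted p = 0.13 and 0.00753). Every SUR library also exceeded every CON library for Slc40a1, Slc41a1, Slc26a2 and Slc16a6, which were not called in LPS against CON. Slc16a6 measured 100.4 ± 13.5 CPM in CON, 95.2 ± 10.4 CPM in LPS and 127 ± 13.6 CPM in SUR. In the other direction stood Slc29a2, with differences of -0.36, -0.31 and -0.39 (adjusted p = 0.235 and 0.021).

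Some members followed the replicate number and not the group. Slc11a1 had 84.0, 165 and 184 CPM in CON, 81.9, 191 and 183 CPM in LPS, and 85.5, 182 and 185 CPM in SUR, so library 1 was the lowest of each group by a wide margin (log2 differences from the mean of libraries 2 and 3 of -1.05, -1.19 and -1.10 in CON, LPS and SUR). Slc17a9, the vesicular nucleotide transporter that loads ATP for release, measured 3.44, 10.4 and 9.70 CPM in CON, 2.92, 8.57 and 9.04 CPM in LPS, and 2.94, 10.5 and 10.7 CPM in SUR. Slc6a12, a betaine and GABA transporter, measured 6.36, 17.2 and 17.3 CPM in CON, 4.63, 20.7 and 24.0 CPM in LPS, and 5.76, 15.6 and 17.0 CPM in SUR. These 3 were the only members more than 2-fold lower in library 1 in all 3 groups (1.9% of members, 1.29% of tested genes), and 0 members were more than 2-fold higher in all 3 (0.993% of tested genes). Slc22a15, chosen after its values were seen, came closest with 0.97, 1.04 and 0.89. In the fit without a block the spread between numbers enters the error of such genes, and their standard errors were large, for example 0.415 on the log2 scale for Slc11a1. What sets the libraries numbered 1 apart is not stated in the labels, and its part in these differences was not tested.

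**Figure D4:**
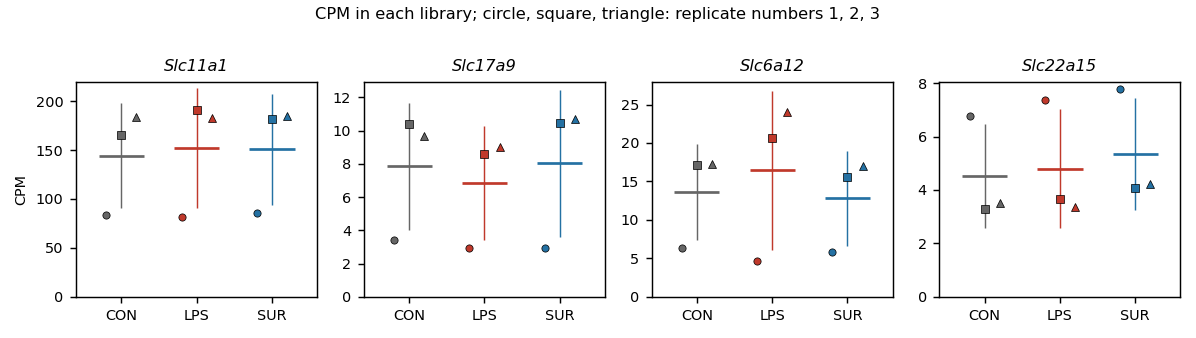
CPM (y axes, starting at 0) of 4 solute carrier genes by group (x axis); circles, squares and triangles are replicate numbers 1, 2 and 3, horizontal lines are group means and vertical lines the mean ± SD of 3 libraries. Library 1 is the lowest of each group for Slc11a1, Slc17a9 and Slc6a12 and the highest for Slc22a15.

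Of 33 tested ABC transporters, which use ATP and lie outside the symbol rule, 3 rose and 1 fell in LPS against CON (12.1%, against 18.3% of all tested genes). In SUR against LPS, 2 were higher and 0 lower (6.06%, against 17.2%). With the block these counts were 7 and 8 (45.5%, against 41.8%), and 9 and 7 (48.5%, against 45.3%). The sterol exporter Abcg1 fell from 209 ± 5.97 CPM to 127 ± 2.89 CPM and was 209 ± 8.01 CPM in SUR (log2 fold change -0.72, edgeR adjusted p = 7.46e-05 for LPS against CON), while Abca1, the exporter of cholesterol to apolipoprotein, rose from 171 ± 28.5 CPM to 245 ± 16.4 CPM (log2 fold change 0.51, edgeR adjusted p = 0.0139). Of 47 tested carriers with other symbols, such as the Mfsd genes and the Slc35 families b to g, 2 rose and 8 fell in LPS (21.3%, near the 18.3% of all tested genes). In SUR against LPS, 5 were higher and 2 lower (14.9%, against 17.2%). With the block these counts were 6 and 13 (40.4%, against 41.8%), and 15 and 5 (42.6%, against 45.3%). Mfsd12, a lysosomal cysteine carrier, fell from 335 ± 37.8 CPM to 198 ± 20.6 CPM (log2 fold change -0.76, edgeR adjusted p = 0.00134), and Mfsd2a, a lysophospholipid carrier, rose from 9.46 ± 2.04 CPM to 14.7 ± 1.19 CPM (log2 fold change 0.64, edgeR adjusted p = 0.0286). In SUR against LPS, Abcg1 (log2 fold change 0.72, edgeR adjusted p = 0.000202) and Mfsd9 (log2 fold change 0.95, edgeR adjusted p = 0.0104) were higher and Mfsd2a lower (log2 fold change -0.74, edgeR adjusted p = 0.016). In SUR against CON without the block, edgeR called 0 genes of the 4 lists of other transporters and metal proteins (0.425% of all tested genes). With the block there were 4 higher and 3 lower metal proteins (35%, against 11.5% of all tested genes). The same fit gave 3 higher and 1 lower ion pumps and channels (16.7%). It gave 2 higher and 1 lower ABC transporters (9.09%) and 3 higher and 2 lower other carriers (10.6%).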

How the data were processed

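RNA-seq of MH-S cells was measured in 9 libraries, 3 each of CON, LPS and SUR. The authors deposited, per gene and library, expected counts (93.4% of values whole) and FPKM values, per the file headers. The submitters' processing notes name HISAT2 2.0.4 and the GRCm38/mm10 genome; no source used here gives the counting tool, the annotation or the use of strand. Total RNA was extracted with Trizol and made into libraries with an MGIEasy kit, per the labels' protocols. Expected counts as deposited were rounded, and 0 columns belonged to other samples. Totals of 15729402 to 16675250 per library limit the precision of genes with few counts.

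All 9 libraries entered 1 edgeR 4.0.16 quasi-likelihood fit (R 4.3.3, TMM factors, filterByExpr, 11281 of 14771 genes tested) without a block, with Benjamini-Hochberg adjustment over all tested genes at 0.05. CPM uses TMM-scaled library sizes, and differences within numbers use log2 CPM with a prior count of 2. Same-numbered libraries deviated together (9 of 9 correlations of deviations from group means between 0.43 and 0.8). Libraries numbered 2 and 3 in different groups also correlated, at 0.35 to 0.44. Those numbered 1 correlated with libraries 2 and 3 of other groups at -0.64 to -0.52. These values therefore mainly set number 1 apart and do not establish pairing of numbers 2 and 3. The replicate number, taken from the sample titles, was treated as pairing, and the fit with the block is given beside results that it changes. The script was tested on simulated data. Alternatives were upper-quartile and RLE scaling, DESeq2 1.42.0, limma-voom (limma 3.58.1), no filter, limma on log2 FPKM with pseudocounts of 0.1 and 1, only the groups compared, and leaving out each library or the libraries numbered 1.

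Members, substrate classes, gene lists and motifs were chosen with earlier results of these data known, so lists are described by counts without a test. The genes named are a list of 26 macrophage transporters, up to 3 called members per direction, class and comparison with the largest change, the 5 highest by FPKM, and up to 2 genes per direction of the lists of metal proteins, ion pumps and channels, ABC transporters and other carriers; the other called members are named too, except 1 that is counted but not reported here. Gene positions are those of the deposited table, which lists 11 members on scaffolds outside the chromosomes; no position is printed for these. Promoters are those of RefSeq on GRCm38.p6, searched on both strands for exact matches.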

Additional observations from a re-analysis of the deposited data

How the results depend on the processing

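No member changed the direction of a call under any alternative tried. With the replicate block, the members that rose and fell numbered 35 and 38 in LPS against CON, 43 and 36 in SUR against LPS, and 18 and 5 in SUR against CON, and all calls made without the block were kept. Upper-quartile scaling gave 30 falls in LPS against CON, and 31 rises and 12 falls in SUR against LPS. FPKM with a pseudocount of 0.1 gave 12 rises and 33 falls in LPS against CON, and 35 rises and 9 falls in SUR against LPS; with a pseudocount of 1 these were 12 and 32, and 35 and 9. Without the libraries numbered 1 there were 24 falls in LPS against CON, 29 rises in SUR against LPS and 10 rises in SUR against CON. Over all 11319 genes tested there, these numbered 1634, 1665 and 503, against 1056, 1048 and 44 of 11281 with all libraries. Fitting only the groups compared gave 9 falls in LPS against CON and 0 rises in SUR against CON, no filter gave 11 rises in SUR against LPS, and DESeq2 gave 4 rises in SUR against CON. Over all tested genes these counts were 750, 3, 874 and 224. Leaving out 1 library at a time gave 16 to 24 rises and 5 to 12 falls in LPS against CON, 4 to 16 rises and 11 to 22 falls in SUR against LPS, and 0 to 3 rises in SUR against CON. Over all tested genes it gave 719 to 1134 rises and 660 to 971 falls in LPS against CON. In SUR against LPS these were 628 to 1008 and 561 to 1046, and SUR against CON had 0 to 163 rises. The cause of these shifts was not tested. Summed over all 158 members, comparisons and alternatives, 297 calls were lost and 290 gained. With 3 libraries per group, members with few counts or a large difference between replicate numbers had standard errors too large for small changes to be called.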
